A study of Mus musculus with 6 samples.

Results

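Histone chaperones are proteins that carry newly made or recycled histones and hand them to DNA. The 10 genes described here, Chaf1a, Chaf1b, Rbbp4, Asf1a, Asf1b, Nasp, Hat1, Hira, Daxx and Atrx, were taken by their gene names from a table of 53023 genes, each name matching 1 row. RNA-seq was performed on two-cell ICR mouse embryos collected 28 h post-insemination (hpi) in 3 groups of 2 libraries, with 5 pooled embryos per library. In the PIASy-WT group, zygotes had received mRNA for tagged PIASy, a SUMO E3 ligase encoded by Pias4. In the PIASy-Mut group the mRNA carried C335F, a change in the RING finger domain of the ligase, and in the non-injection group no mRNA was given. Injection took place 1.5 to 3 hpi with mRNA at 100 ng/µl, and zygotes that fluoresced at 9 hpi were kept. Embryos of the non-injection group were neither injected nor chosen by fluorescence, so in comparisons with that group the injection and its product cannot be told apart, whereas PIASy-Mut embryos went through both steps. The labels do not say whether the libraries of a group came from separate fertilizations, so P-values cover the spread between these pools.

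New chromatin is assembled along separate routes. In the replication-coupled route, soluble H3 and H4 are held by NASP, H4 is acetylated by HAT1, the dimers pass to ASF1, and CAF-1, made of CHAF1A, CHAF1B and RBBP4, places them on DNA behind the replication fork. In the replication-independent route, HIRA places the variant H3.3 at transcribed and nucleosome-free DNA, and DAXX with ATRX places it at telomeres and pericentromeric repeats. In the mouse zygote the paternal genome is packaged with H3.3 before replication, and loss of CAF-1 is known to bring embryonic stem cells closer to a two-cell-like state. Chaf1a, Chaf1b, Rbbp4, Asf1b and Nasp are treated here as the 5 replication-coupled members and Hira, Daxx and Atrx as the 3 replication-independent members. Asf1a, which serves both routes, and Hat1 stand in neither class.

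Levels are given as FPKM, fragments per kilobase of exon scaled to the fragments on genes in the library, which can be compared between genes. The libraries held between 871663 and 1363928 fragments on genes, and 3 fragments, taken as the limit of detection, were a CPM (count relative to depth) of 2.20 to 3.44 (counting error only, since the reads carried no molecular identifiers). Levels are shares of each library, and in pooled embryos fewer cells and less RNA per cell cannot be told apart. Pias4 had 610 and 579 FPKM with PIASy-WT, 862 and 611 with PIASy-Mut and 2.98 and 3.59 without injection, injected and endogenous transcripts together. The test was limma on log2(FPKM + 1) over the 16100 genes that reached an FPKM of 1 in 2 or more libraries, and a gene was called at a Benjamini-Hochberg adjusted P of at most 0.05. This pseudocount of 1 understates changes of genes with a low FPKM. All 10 members passed the filter.

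Nasp was the only member called in any comparison. Its level fell in PIASy-WT in both comparisons, so 1 of the 10 members was called lower and 0 higher in each of these comparisons. Both use the same PIASy-WT libraries and a shared estimate of the spread, so calls in both are not independent. Over all 16100 genes tested, 5.76% were called lower and 1.03% higher in PIASy-WT against non-injection, and 6.01% lower and 0.82% higher in PIASy-WT against PIASy-Mut. In PIASy-Mut against non-injection 0 members were called by limma, or by voom on recovered fragments, and 0 had an unadjusted P under 0.05 (4.46% of all genes), with 0% of all genes called lower and 0.00621% called higher, the latter being Pias4 alone. Members with an unadjusted P under 0.05 by limma numbered 1 (Nasp) in the first comparison and 3 (Nasp, Chaf1b and Asf1b) in the second, beside 28.2% and 27.7% of all genes tested, a share under the background in the first and near it in the second. The median log2 fold change of the 10 members was -0.32 in PIASy-WT against non-injection, -0.28 against PIASy-Mut and -0.11 in PIASy-Mut against non-injection, beside medians of 0.01, -0.03 and 0.04 over all genes tested.

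**Figure D1:**
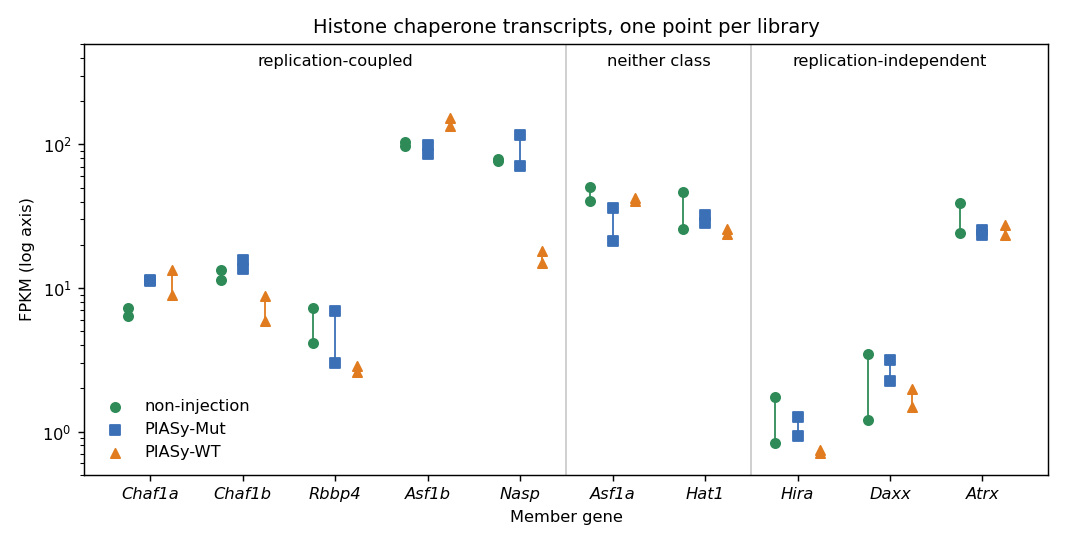
FPKM of the 10 members on a log axis, with 1 point per library and a line joining the libraries of a group. The PIASy-WT libraries of Nasp lie at 18.2 and 14.9, below the other 4 libraries at 70.3 to 116, and those of Asf1b at 133 and 152, above the other 4 at 85.8 to 104.

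Among the replication-coupled members, Nasp keeps a soluble reserve of H3 and H4. Its gene (ENSMUSG00000028693.15) lies on the minus strand of chromosome 4 from 116601052 to 116627941 of mm10. Nasp had 18.2 and 14.9 FPKM with PIASy-WT, 116 and 70.3 with PIASy-Mut and 76.0 and 79.4 without injection. These levels rested on 129 to 181, 461 to 901 and 675 to 779 fragments, respectively. Both PIASy-WT libraries lay well under the other 4, while the PIASy-Mut libraries enclosed the non-injection ones. The mean level of Nasp was 77.7 ± 2.42 FPKM in non-injection and 16.5 ± 2.29 in PIASy-WT (SD, n = 2 each), a 4.69-fold difference, and against PIASy-Mut the difference was 5.63-fold. On the log2 scale of FPKM + 1 the fold change of Nasp over non-injection was -2.17 (standard error 0.31, limma adjusted P=0.0290). Over PIASy-Mut it was -2.39 (standard error 0.31, limma adjusted P=0.0240), and in PIASy-Mut against non-injection it was 0.22, which did not pass. Of all genes tested, 4.66% had a lower log2 fold change than Nasp against non-injection and 3.38% against PIASy-Mut. Its exons overlapped no other gene, and 2.87% of its 50-base sequences occurred in another gene. The summed level of 6 two-cell embryo markers was also lower in PIASy-WT (585 to 816 FPKM) than in the other 4 libraries (1175 to 1337), although the libraries of 3 of these markers overlapped between the groups.

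The call of Nasp depended on the fit. The call against non-injection was lost when no filter on low values was applied (limma adjusted P=0.0536). It was also lost when eBayes was run without the mean-variance trend (limma adjusted P=0.0517). Over all genes, 928 were called lower in that comparison, beside 154 without the filter and 256 without the trend. The call against PIASy-Mut was lost in the fit of those 4 libraries alone (limma adjusted P=0.117), where 0 genes of the whole table were called. Leaving out either non-injection or either PIASy-WT library ended both calls (limma adjusted P between 0.116 and 0.244), as did PIASy-Mut replicate 1 against PIASy-Mut (limma adjusted P=0.0953). In each fit without one of these libraries 0 genes of the whole table were called in the comparison concerned, and the log2 fold change of Nasp stayed between -2.74 and -2.03 over all the fits with a library left out.

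ASF1 is the H3-H4 carrier that delivers dimers to CAF-1 and to HIRA, and its forms are encoded by Asf1a and Asf1b. Asf1b, the form found mainly in dividing cells (ENSMUSG00000005470.8, plus strand of chromosome 8 from 83955507 to 83970197), had 133 and 152 FPKM with PIASy-WT, 85.8 and 99.1 with PIASy-Mut and 97.2 and 104 without injection. It was the only member with both PIASy-WT libraries above the other 4, and it did not pass the test. Over non-injection its log2 fold change was 0.50 (95% interval -0.05 to 1.05, limma adjusted P=0.213), and over PIASy-Mut 0.62 (0.07 to 1.17, unadjusted P=0.0337 and adjusted P=0.143 by limma). Asf1a stood at 40.2 and 42.3 FPKM with PIASy-WT, 21.3 and 35.9 with PIASy-Mut and 50.4 and 40.6 without injection. Its PIASy-WT libraries lay at the lower end of the non-injection ones, and its lowest libraries were those of PIASy-Mut. In PIASy-WT the log2 fold change of Asf1a over non-injection was -0.13 and over PIASy-Mut 0.56 (limma adjusted P=0.822 and 0.316), and 48.0% of its exon bases also belong to Mcm9 on the opposite strand. The ratio of Asf1b to Asf1a FPKM was between 1.93 and 4.03 in the 6 libraries. The use of strand in counting is not given, so reads in the bases shared with Mcm9 may not have been counted for Asf1a, and the order of Asf1a and Asf1b is given with this limit.

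Nasp and Asf1b, both replication-coupled, thus lay on opposite sides of the other groups in PIASy-WT. The FPKM ratio of Nasp to Asf1b was 0.136 and 0.0983 with PIASy-WT, 1.35 and 0.71 with PIASy-Mut and 0.781 and 0.766 without injection. Nasp made up 23.9% to 37.1% of the summed FPKM of the 10 members in the 4 other libraries and 6.79% and 5.31% in PIASy-WT, while Asf1b made up 27.4% to 33.7% and then 49.8% and 54.0%. The summed FPKM of the members was 294 to 324 in the 4 other libraries and 268 and 281 in PIASy-WT.

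The 250 bases before the RefSeq start of the genes (GRCm38.p6) are shown for Nasp, the called member, and for Chaf1b. Chaf1b is a CAF-1 subunit gene whose PIASy-WT libraries also lay below the others. The same holds for Rbbp4, whose window is not printed. Capitals mark CCAAT boxes, the letters that the factor NF-Y binds (CCAAT, or ATTGG for the other strand), and the letters TTTGAA (or TTCAAA), found in the cell cycle genes homology regions of genes of late cell cycle phases.
Nasp, chr4:116627952-116628201, minus strand: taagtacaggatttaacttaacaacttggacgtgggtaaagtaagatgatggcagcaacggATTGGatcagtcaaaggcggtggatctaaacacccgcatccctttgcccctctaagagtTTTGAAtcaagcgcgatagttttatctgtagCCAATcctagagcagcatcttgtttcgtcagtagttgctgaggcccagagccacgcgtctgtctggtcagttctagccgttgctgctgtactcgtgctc
Chaf1b, chr16:93883651-93883900, plus strand: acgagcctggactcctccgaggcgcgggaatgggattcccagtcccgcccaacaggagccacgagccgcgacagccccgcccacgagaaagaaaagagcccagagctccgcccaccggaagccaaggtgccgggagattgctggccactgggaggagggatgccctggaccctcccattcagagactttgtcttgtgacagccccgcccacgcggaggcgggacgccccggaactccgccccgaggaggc
The Nasp window held 2 CCAAT boxes, beginning 99 and 189 bases before the start, and 1 TTTGAA at 130 bases. The Chaf1b window held none of either. No marked letters overlapped. The Asf1b window, not printed, held 4 CCAAT boxes, beginning between 39 and 200 bases before the RefSeq start, and 1 TTTGAA at 14 bases. However, 187 of its 250 bases, with 3 of these CCAAT boxes and the TTTGAA, lie inside Asf1b as the table of genes gives it, so they are not upstream of both starts. A CCAAT box was found for 8 of the 10 members (not for Chaf1b or Hira), beside 33.8% of all 32851 promoters and 37.1% of the 12200 promoters of tested genes. TTTGAA was found for Nasp and Asf1b, 2 of the 10 members, beside 16% of all promoters and 12.2% of those of tested genes. The GC box (GGGCGG on either strand) was found for 7 members, beside 32.7% and 50.9%, and the TATA box (TATAAA on either strand) for 0, beside 12.4% and 8.2%. Such matches do not show that a factor binds there.

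CAF-1 is the complex that places H3 and H4 at the fork, and 0 of its 3 subunit genes passed the test in any comparison. Chaf1a, which encodes the large subunit that holds PCNA, had 8.90 and 13.4 FPKM with PIASy-WT, 11.1 and 11.4 with PIASy-Mut and 6.43 and 7.22 without injection. All 4 libraries of injected embryos lay above both non-injection libraries. Over non-injection the log2 fold change of Chaf1a was 0.61 in PIASy-WT and 0.65 in PIASy-Mut (limma adjusted P=0.263 and 1), and -0.04 between the injected groups, with 18.7% of its exon bases shared with Ubxn6 on the opposite strand. In GENCODE M21, which holds longer Chaf1a transcripts than the table, 49.7% of its 50-base sequences occurred in another gene. Chaf1b, the middle subunit, had 8.75 and 5.91 FPKM with PIASy-WT, 15.7 and 13.5 with PIASy-Mut and 11.4 and 13.4 without injection. Both PIASy-WT libraries of Chaf1b lay below the other 4. Over non-injection its log2 fold change was -0.71 (95% interval -1.47 to 0.06, limma adjusted P=0.204), and over PIASy-Mut -0.92 (-1.69 to -0.16, limma adjusted P=0.123). The ratio of Chaf1b to Chaf1a FPKM was 0.984 and 0.441 with PIASy-WT, 1.41 and 1.18 with PIASy-Mut and 1.78 and 1.86 without injection, so Chaf1b was below Chaf1a in the PIASy-WT libraries alone. This ratio was not tested, and reads in the bases Chaf1a shares with other genes may not have been counted for it.

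Rbbp4, the small CAF-1 subunit that also serves in other chromatin complexes, had 2.85 and 2.59 FPKM with PIASy-WT, 6.87 and 3.02 with PIASy-Mut and 7.21 and 4.15 without injection. The PIASy-WT libraries of Rbbp4 lay below the other 4, but PIASy-Mut replicate 2 was close to them, and 9.10% of its exon bases also belong to Gm26722 and 8.94% to Sync, both on the opposite strand. The log2 fold changes of Rbbp4 in PIASy-WT were -0.81 over non-injection and -0.60 over PIASy-Mut (limma adjusted P=0.311 and 0.456). Rbbp7, the close relative of Rbbp4 that partners HAT1, was 35.0 to 77.3 times as high as Rbbp4 in FPKM in the 6 libraries, where 17.2% of the 50-base sequences of Rbbp4 and 11.2% of those of Rbbp7 occurred in another gene and may have gone uncounted. Rbbp7 had log2 fold changes of -0.45 and -0.35 in PIASy-WT (limma adjusted P=0.398 and 0.509). Hat1, the acetyltransferase of new H4, had 25.9 and 23.8 FPKM with PIASy-WT, 28.5 and 32.2 with PIASy-Mut and 25.9 and 46.3 without injection. Its PIASy-WT libraries were the lowest of the 6, although the upper one equals the lower non-injection library when rounded. In PIASy-WT the log2 fold change of Hat1 was -0.47 over non-injection and -0.28 over PIASy-Mut (limma adjusted P=0.403 and 0.620).

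The replication-independent members did not pass the test in any comparison either, and the transcripts of Hira and Daxx were near the lower end of what this depth can measure. Hira, the H3.3 chaperone of transcribed genes, had 0.738 and 0.709 FPKM with PIASy-WT, 1.26 and 0.935 with PIASy-Mut and 0.837 and 1.73 without injection, from 5 to 12 fragments per library. The PIASy-WT libraries of Hira were the lowest of the 6 in FPKM, from 6 and 5 fragments, while PIASy-Mut replicate 2 also had 5. Over non-injection its log2 fold change was -0.38 (95% interval -1.38 to 0.62, limma adjusted P=0.574), and over PIASy-Mut -0.28 (-1.28 to 0.72), and 45.3% of its exon bases also belong to Gm28539 on the same strand, so reads there may not have been counted for Hira. Daxx, which binds H3.3, had 1.48 and 1.99 FPKM with PIASy-WT, 3.17 and 2.25 with PIASy-Mut and 1.20 and 3.47 without injection, also from 5 to 12 fragments. The Daxx groups overlapped, with log2 fold changes of -0.20 over non-injection (95% interval -1.37 to 0.97, limma adjusted P=0.813) and -0.43 over PIASy-Mut (-1.61 to 0.74), so these intervals hold a 2-fold decrease. Atrx, the remodelling ATPase that works with DAXX, was far more abundant, with 478 to 1150 fragments per library and an FPKM of 27.3 and 23.4 with PIASy-WT, 23.2 and 25.2 with PIASy-Mut and 38.8 and 24.0 without injection. Its groups overlapped, non-injection replicate 1 being the highest library. Over non-injection the log2 fold change of Atrx was -0.26 (95% interval -1.02 to 0.49, limma adjusted P=0.604), and over PIASy-Mut 0.06 (-0.70 to 0.81, limma adjusted P=0.930).

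**Figure D2:**
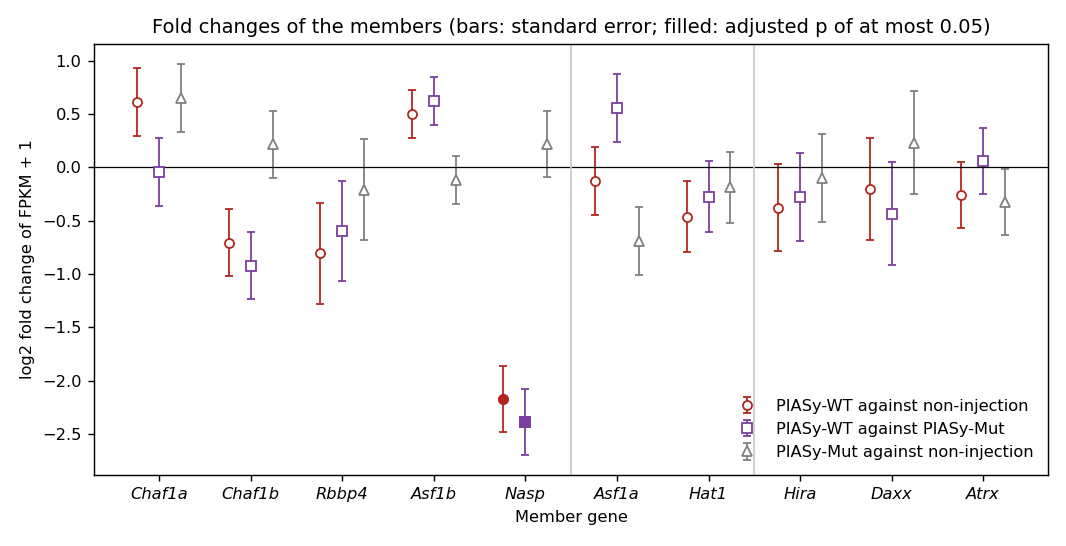
Log2 fold changes of FPKM + 1 for the 10 members in the 3 comparisons, with standard errors from limma as bars and filled symbols at an adjusted P of at most 0.05. Nasp is the only filled gene, at -2.17 and -2.39 in the PIASy-WT comparisons, and the other members lie between -0.92 and 0.65.

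In order of mean FPKM, the members in non-injection ran from Asf1b (100 ± 4.54, SD, n = 2) and Nasp through Asf1a, Hat1, Atrx, Chaf1b, Chaf1a, Rbbp4 and Daxx to Hira (1.28 ± 0.632). Asf1a and Hat1, Hat1 and Atrx, Chaf1a and Rbbp4, and Daxx and Hira were neighbours whose libraries overlapped. In PIASy-Mut, Nasp (93.2 ± 32.4) and Asf1b (92.4 ± 9.44) overlapped at the top of the order. In PIASy-WT, Asf1b (143 ± 13.1) was first and Nasp (16.5 ± 2.29) was the fifth member, after Asf1a, Atrx and Hat1, of which Atrx and Hat1 overlapped. Chaf1a and Chaf1b also changed places there, while Rbbp4, Daxx and Hira were the lowest members in all 3 groups. Over the members, 5 (Nasp, Chaf1b, Rbbp4, Hat1 and Hira) had both PIASy-WT libraries below the other 4, 1 (Asf1b) had both above, and 4 overlapped, beside 24.4% of all genes tested below and 19.9% above.

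To compare the classes, log2(FPKM + 1) was averaged over the members of each class in each library, and the replication-independent mean was taken from the replication-coupled mean. The difference was 1.66 and 1.63 with PIASy-WT, 2.18 and 2.01 with PIASy-Mut and 2.05 and 1.71 without injection. The PIASy-WT libraries were thus the lowest of the 6, with non-injection replicate 2 close to them. The group means of PIASy-WT were 0.23 below non-injection and 0.45 below PIASy-Mut in this difference, beside a pooled SD within groups of 0.156. The replication-independent mean includes Hira and Daxx, with 5 to 12 fragments per library, whose changes the pseudocount understates. The replication-coupled mean itself of PIASy-WT was 0.51 under that of non-injection and 0.67 under that of PIASy-Mut, and the replication-independent mean was 0.28 and 0.22 lower.

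This difference between the classes rested on Nasp. Without Nasp, a choice made after seeing the data, the difference was 1.59 and 1.61 with PIASy-WT, 1.66 and 1.58 with PIASy-Mut and 1.60 and 1.24 without injection. The PIASy-WT mean was then 0.18 above non-injection and 0.02 below PIASy-Mut. These scores over chosen members are a description and were given no test. With the remaining replication-coupled members the PIASy-WT libraries lay within the range of the other 4.

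**Figure D3:**
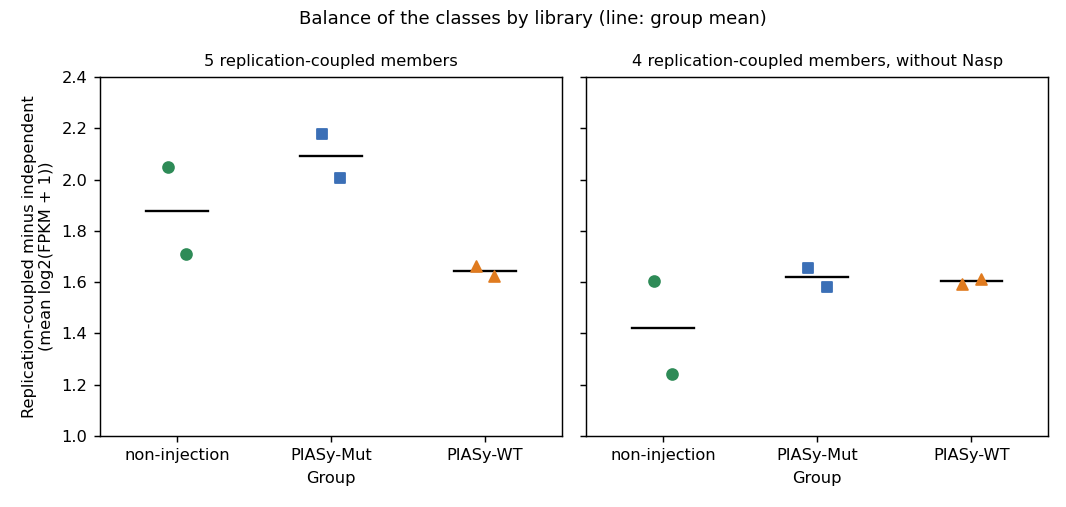
Mean log2(FPKM + 1) of the replication-coupled members minus that of Hira, Daxx and Atrx in each library, with lines at the group means and a vertical axis that does not start at 0. With all 5 replication-coupled members (left) the PIASy-WT libraries lie lowest at 1.66 and 1.63, and without Nasp (right) they lie at 1.59 and 1.61, among the other libraries at 1.24 to 1.66.

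A wider list of 34 genes of histone supply and deposition was read in the same fit, of which 33 passed the filter on low values. In PIASy-WT against non-injection 4 of the 33 were called lower and 0 higher (5.76% and 1.03% of all genes), in PIASy-WT against PIASy-Mut 3 lower and 0 higher (6.01% and 0.82% of all genes), and in PIASy-Mut against non-injection 0. The genes with an unadjusted P under 0.05 by limma numbered 12, 11 and 0 of the 33 in these comparisons, beside 28.2%, 27.7% and 4.46% of all genes tested, and the median log2 fold changes of the list were -0.54, -0.53 and 0.07. Both PIASy-WT libraries were below the other 4 for 17 of the 33 genes and above them for 3, beside 24.4% and 19.9% of all genes tested.

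The called genes were Set and 3 genes of centromeric histone deposition. Set, a chaperone of the NAP1 family that also shields histone tails from acetylation, had 7.42 and 5.13 FPKM with PIASy-WT, 44.3 and 37.8 with PIASy-Mut and 26.1 and 38.9 without injection. The log2 fold changes of Set were -2.20 over non-injection and -2.54 over PIASy-Mut (limma adjusted P=0.0292 and 0.0237), with 29.3% of its 50-base sequences present in another gene, most often in Gm9531. Cenpa encodes the H3 variant of centromeres and had 15.6 and 15.9 FPKM with PIASy-WT, 102 and 60.5 with PIASy-Mut and 72.3 and 77.6 without injection. The log2 fold changes of Cenpa were -2.18 and -2.25 in the same order (limma adjusted P=0.0285 and 0.0240), close in size to those of Nasp.

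Mis18a and Oip5 encode partners in the Mis18 complex, which prepares centromeres to receive CENP-A. Oip5 had 23.8 and 16.1 FPKM with PIASy-WT, 266 and 100.0 with PIASy-Mut and 119 and 113 without injection, with log2 fold changes of -2.51 over non-injection and -3.00 over PIASy-Mut (limma adjusted P=0.0405 and 0.0293) and 9.67% of its exon bases shared with Nusap1 on the opposite strand. PIASy-Mut replicate 1 was the highest library of Oip5, and the PIASy-WT libraries were far below the other 4. Mis18a had 18.2 and 13.7 FPKM with PIASy-WT, 82.6 and 37.3 with PIASy-Mut and 85.3 and 59.9 without injection, and it was called against non-injection (log2 fold change -2.11, limma adjusted P=0.0450) and not against PIASy-Mut (-1.75, limma adjusted P=0.0645). The latter comparison was called for Mis18a in 3 of 11 alternatives, among them a filter at an FPKM of 5 in 2 or more libraries (limma adjusted P=0.0354) and voom (limma adjusted P=0.0135), and without PIASy-Mut replicate 2 (limma adjusted P=0.0275). Leaving out either non-injection or either PIASy-WT library ended the calls of all 4 genes, and leaving out PIASy-Mut replicate 1 ended those of Set, Cenpa and Oip5 against PIASy-Mut. All 4 calls against non-injection were lost without the filter and without the trend. The call of Mis18a was the least stable, held in 6 of the 11 alternatives that left out no single library, and was also lost with a pseudocount of 0.1 (limma adjusted P=0.0538), with quantile normalization (limma adjusted P=0.0557) and with median-ratio scaling (limma adjusted P=0.0571). Against PIASy-Mut the calls of Set, Cenpa and Oip5 were lost in the fit of those 4 libraries alone (limma adjusted P=0.117), which called 0 genes of the whole table. That of Oip5 was also lost without the filter (limma adjusted P=0.0556).

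Partners of the replication-independent chaperones did not pass the test. Ubn1, Ubn2 and Cabin1 encode the other subunits of the HIRA complex, and their log2 fold changes in PIASy-WT were -1.01, -0.07 and -0.44 over non-injection and -0.74, 0.01 and -0.26 over PIASy-Mut (smallest limma adjusted P=0.132). For Ubn1 both PIASy-WT libraries, at 7.48 and 5.53 FPKM, were below the other 4, at 8.86 to 15.1. H3.3 itself is made from H3f3a and H3f3b. H3f3b was the more abundant, with 903 and 699 FPKM with PIASy-WT, 545 and 535 with PIASy-Mut and 765 and 679 without injection, and H3f3a had 32.3 and 34.8, 64.4 and 42.9, and 46.9 and 50.5 in that order. Their log2 fold changes in PIASy-WT were 0.14 and 0.56 for H3f3b and -0.52 and -0.63 for H3f3a, over non-injection and PIASy-Mut respectively (smallest limma adjusted P=0.204). Of their 50-base sequences, 27.1% for H3f3a and 6.86% for H3f3b occurred in another gene. In addition, 18.2% of the exon bases of H3f3a also belong to Gm17275 on the opposite strand. Reads there may not have been counted, so the order of H3f3b and H3f3a is given with this limit. Pcna, the clamp that brings CAF-1 to the fork, had 41.8 and 30.5 FPKM with PIASy-WT, 61.4 and 44.0 with PIASy-Mut and 48.3 and 49.4 without injection, with log2 fold changes of -0.44 and -0.53 (limma adjusted P=0.365 and 0.294).

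**Figure D4:**
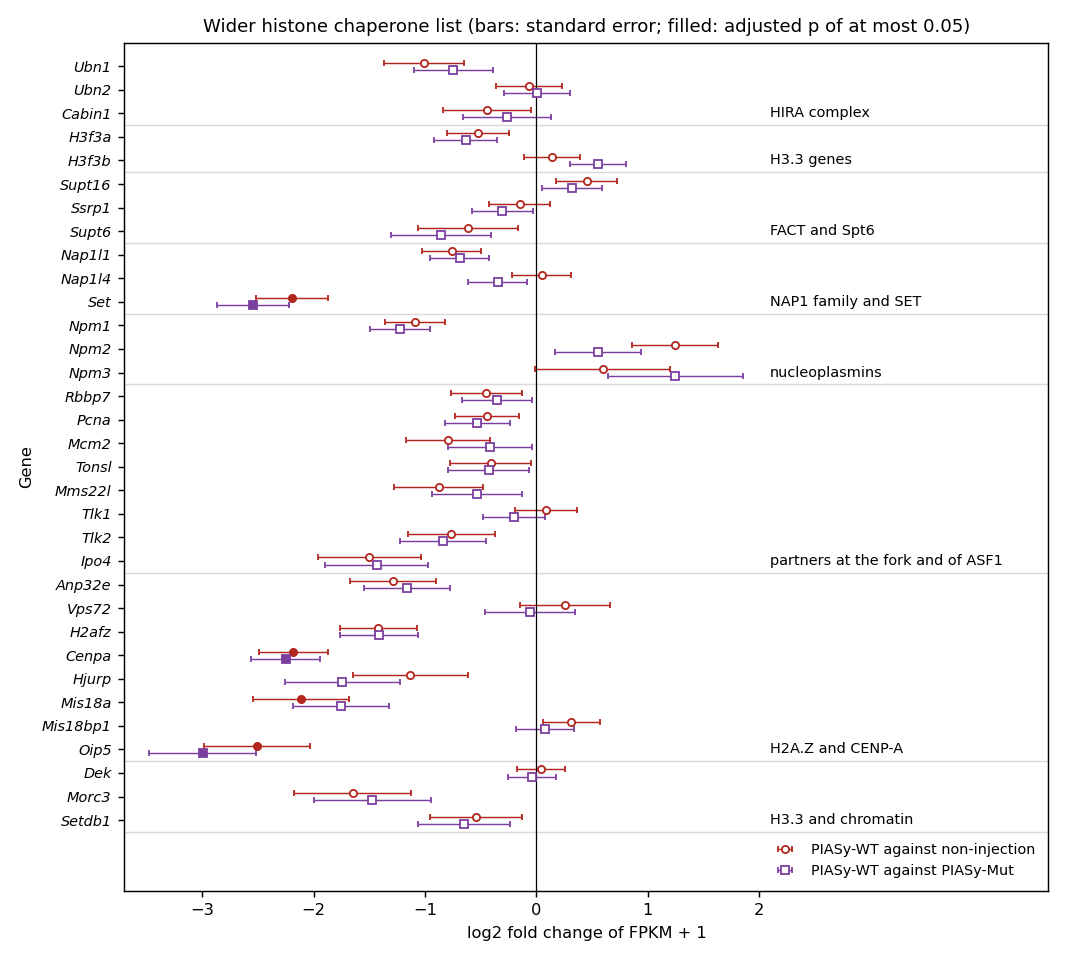
Log2 fold changes of FPKM + 1 in PIASy-WT for the 33 tested genes of the wider list, grouped by role, with standard errors from limma as bars and filled symbols at an adjusted P of at most 0.05. Set, Cenpa and Oip5 are filled in both comparisons, at -2.18 to -3.00, and Mis18a in 1, at -2.11.

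The labelled stage was checked with marker genes. Of 7 two-cell embryo markers, 6 were found by name and detected, and their summed FPKM was 1175 to 1222 in non-injection, 1300 to 1337 in PIASy-Mut and 585 to 816 in PIASy-WT. Both PIASy-WT libraries were below the other 4 for 3 of them (Zfp352, Tcstv3 and Tdpoz4), and the libraries of Zscan4c, Zscan4d and Tcstv1 overlapped. The 7 oocyte and early embryo markers summed to 5981 to 6730, 5334 to 6039 and 4381 to 5378 FPKM. Most of this sum was Dppa3, with a mean of 5633, 4791 and 3099 FPKM in that order. Both PIASy-WT libraries were below the other 4 for Dppa3 and Zp3 and above them for Bmp15 (means of 471, 536 and 1381 FPKM), and 4 of these markers overlapped. These 4 also had higher means in PIASy-WT than in non-injection. In the same order the means were 86.4, 170 and 212 FPKM for Gdf9 and 77.9, 88.5 and 143 for Ooep. For Nlrp5 they were 9.99, 18.3 and 16.4, and for Zar1 5.04, 5.29 and 5.90. The 8 cumulus and granulosa markers summed to 1.88 to 3.05, 3.28 to 7.19 and 5.66 to 6.66 FPKM in the same order, with 3 of them at 0 in every library, and the 4 sperm markers to 4.92 to 5.89, 1.96 to 3.60 and 2.73 to 3.38. The part of the embryos' stage or of these other transcripts in the level of Nasp was not tested.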

How the data were processed

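RNA-seq was analysed for 6 libraries of pooled two-cell embryos in 3 groups, mapped to group and replicate by their labels. The authors trimmed reads below Q20 and adapters with Trim Galore, used STAR for alignment to mm10 and featureCounts to count reads that mapped uniquely. The deposited values are FPKM for 53023 genes. The annotation release and the use of strand are not given in the sources used here. FPKM times gene length gave whole fragments (tolerance 0.01) for 100% of values above 0, from which depth was taken. The table has 0 spike-in rows, so levels are shares of a library.

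The authors tested counts. Here limma 3.58.1 in R 4.3.3 (lmFit and eBayes with trend, all 6 libraries, no block) was run on log2(FPKM + 1) and tested on simulated data. Exact permutation of 2 against 2 libraries cannot give a two-sided P below 0.333 and was not used. The members and lists were chosen with earlier results of these data known. The text names the 10 members, Pias4, the called genes of the wider list and H3f3a, H3f3b, Rbbp7, Ubn1, Ubn2, Cabin1, Pcna and Npm2, and, chosen after their values were seen, Npm1, Npm3 and single marker genes. Exon overlap was read from GENCODE M21, in which 50248 of 53023 identifiers had the same position, and promoters from RefSeq, matched by symbol for 10 of 10 members. Alternatives were other pseudocounts, filters, scalings, spread estimates, sets of libraries, a replicate block and voom on recovered fragments. Python 3.11.15, numpy 2.4.6, pandas 2.3.3 and matplotlib 3.10.9 were used.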

Additional observations from a re-analysis of the deposited data

How the results depend on the processing

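The log2 fold change of Nasp in PIASy-WT was -2.23 to -1.90 against non-injection and -2.45 to -2.06 against PIASy-Mut over the 11 alternatives that kept all libraries or the groups compared, and it was called in 9 and 10 of them. Members called against non-injection fell to 0 without the filter on low values and without the trend of eBayes, and against PIASy-Mut to 0 in the fit of the groups compared alone. With a library left out, members called ranged from 0 to 1 in both comparisons. The wider list had 4 called genes against non-injection, but 0 without the filter and without the trend, 10 with the groups compared alone and 10 with voom, and 0 to 9 with a library left out. Against PIASy-Mut it had 3, but 6 with the stricter filter (FPKM of 5 in 2 or more libraries), 0 with the groups compared alone, 5 with the replicate block, 9 with voom, and 0 to 10 with a library left out. The cause was not tested. Over all genes, the 928 and 968 called lower in these comparisons became 0 to 1895 and 0 to 1875.

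Replicate numbers did not pair the libraries (correlation of deviations 0.00368, 0.0851 and 0.0637 over the 3 pairs of groups), and the replicate block changed no count of members called, while Mis18a was called against PIASy-Mut with it (limma adjusted P=0.0423).

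The difference between the classes, -0.23 against non-injection, ranged from -0.40 to -0.064 with a library left out and was 0.18 without Nasp. Against PIASy-Mut it was -0.017 without Nasp, and -0.53 to -0.36 with a library left out. In PIASy-Mut against non-injection it ranged from 0.044 to 0.38. It had no value under the stricter filter, which removed Hira and Daxx.

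Quantile normalization moved the median of all genes to 0.12 and 0.11 in the PIASy-WT comparisons and turned Asf1a (0.17) and Atrx (0.033) against non-injection, Chaf1a (0.28) and Hat1 (0.095) against PIASy-Mut, and Cenpa (-0.0091) in PIASy-Mut against non-injection. Median-ratio scaling turned Chaf1a against PIASy-Mut (0.081). None of these was a called value. With a library left out, other uncalled values changed sign. In PIASy-WT against non-injection these were Asf1a (-0.28 to 0.023), Daxx (-0.71 to 0.31) and Atrx (-0.60 to 0.073), and against PIASy-Mut Chaf1a (-0.31 to 0.23) and Atrx (-0.047 to 0.17). In PIASy-Mut against non-injection they were Rbbp4 (-0.69 to 0.28), Nasp (-0.14 to 0.57), Hat1 (-0.59 to 0.22), Hira (-0.38 to 0.19), Daxx (-0.28 to 0.74), Atrx (-0.66 to 0.013), Cenpa (-0.30 to 0.44), Mis18a (-0.92 to 0.21) and Oip5 (-0.22 to 1.19).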

Other observations

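Npm1, Npm2 and Npm3 encode nucleoplasmins, a family of histone chaperones that includes the carrier of stored histones in the oocyte, and none of them was called. Npm2, the oocyte form, had 636 and 778 FPKM with PIASy-WT, 339 and 673 with PIASy-Mut and 254 and 344 without injection. Its log2 fold change was 1.25 in PIASy-WT against non-injection and 0.56 against PIASy-Mut (limma adjusted P=0.103 and 0.403), and PIASy-Mut replicate 2 lay among the PIASy-WT libraries. Npm1, the widely expressed form, was named after its values were seen. It had 140.1 and 119 FPKM with PIASy-WT, 358 and 256 with PIASy-Mut and 300.1 and 255 without injection, with log2 fold changes of -1.09 and -1.22 (limma adjusted P=0.0654 and 0.0524), and 24.3% of its 50-base sequences occurred in another gene. Npm3, also named after its values were seen, had only 0 to 5 fragments per library, with 2.54 and 3.66 FPKM with PIASy-WT, 0 and 1.93 with PIASy-Mut and 1.24 and 2.23 without injection. Its log2 fold changes in PIASy-WT were 0.60 over non-injection and 1.25 over PIASy-Mut (limma adjusted P=0.550 and 0.244), at or close to the limit of detection of 3 fragments in most libraries. The FPKM ratio of Npm2 to Npm1 was 4.54 and 6.53 with PIASy-WT, 0.946 and 2.63 with PIASy-Mut and 0.846 and 1.35 without injection.

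The FPKM ratio of H3f3b to H3f3a was 28.0 and 20.1 with PIASy-WT, 8.45 and 12.5 with PIASy-Mut and 16.3 and 13.5 without injection. The ratio of Cenpa to H3f3b was 0.0173 and 0.0227, 0.188 and 0.113, and 0.0945 and 0.114 in the same order. In both ratios the PIASy-WT libraries lay outside the range of the other 4, and neither ratio was tested. Reads in the sequences that H3f3a shares with other genes may not have been counted for it.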
